A study of Mus musculus with 12 samples.

Results

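10 genes of endothelial junctions and endothelial identity were followed in a mouse vascular tumor cell line with and without autophagy genes. They are Pecam1, Cdh5, Esam, Cldn5, Emcn, Erg, Fli1, Sox17, Robo4 and Egfl7, taken by their symbols from tables of 14851 genes, and all 10 of the 10 were present. The line, 562, arose by spontaneous immortalization of cells from cutaneous tumors of Tsc1 f/f;Scl-Cre mice after tamoxifen, so that control and KO cells alike lacked Tsc1, the brake on mTORC1, in a lineage marked by an endothelial and hematopoietic promoter. The labels name the tissue as lymphatic endothelial cells and the strain as C57BL/6. The cells called Atg5 KO, Atg7 KO and Fip200 KO carried CRISPR guides against Atg5, Atg7 or Fip200 (gene Rb1cc1) in a lentiviral vector and were selected with puromycin. Control cells are labelled wildtype, and the study's methods name a guide RNA against EGFP as the control without saying that the sequenced control cells carried it. RNA-sequencing libraries numbered 3 per group and 12 in all, and the same 3 control libraries served every comparison with control. The source describes Fip200 KO cells as clones, without saying which clone gave the libraries, and nothing says that the replicates came from separate KO derivations, so p-values measure only the spread between these samples.

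Endothelial cells hold one another through adherens junctions built on VE-cadherin, through tight junctions that contain claudins and immunoglobulin-like adhesion molecules, and through PECAM-1, which also lies at cell borders. ETS transcription factors, ERG and FLI1 among them, keep many of these genes on in endothelium by binding sites with the core letters GGAA, and SOXF factors, among them SOX17, share in endothelial and arterial programs. ROBO4 is a guidance receptor nearly restricted to endothelium that stabilizes vessels, EGFL7 is a matrix protein secreted by endothelial cells, and endomucin is a sialomucin of the endothelial surface that is usually found on venous and capillary cells.

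The DNA before the start site is shown for 3 members, because it lets a reader see the letters that ETS factors read next to genes that behaved differently: Robo4 (called in 2 of 3 KO groups), Emcn (the most abundant member, called in none) and Cldn5 (the most variable member). Each is the 250 bases before the RefSeq start, 5′ to 3′ on the strand of the gene in GRCm38.p6, with GGAA and its reverse complement TTCC in capitals. The positions are chr9:37401722-37401971 (+) for Robo4, chr3:137340828-137341077 (+) for Emcn and chr16:18776597-18776846 (+) for Cldn5.
Robo4: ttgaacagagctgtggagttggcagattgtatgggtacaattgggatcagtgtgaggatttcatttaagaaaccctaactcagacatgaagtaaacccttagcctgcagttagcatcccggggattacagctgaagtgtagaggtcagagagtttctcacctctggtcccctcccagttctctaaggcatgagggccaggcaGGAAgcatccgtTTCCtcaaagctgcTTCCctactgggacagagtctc
Emcn: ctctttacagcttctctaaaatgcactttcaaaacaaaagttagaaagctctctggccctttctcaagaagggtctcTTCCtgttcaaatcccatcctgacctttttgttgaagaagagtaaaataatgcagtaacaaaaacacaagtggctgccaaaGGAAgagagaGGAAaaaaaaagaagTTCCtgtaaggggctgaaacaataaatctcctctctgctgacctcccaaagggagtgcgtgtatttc
Cldn5: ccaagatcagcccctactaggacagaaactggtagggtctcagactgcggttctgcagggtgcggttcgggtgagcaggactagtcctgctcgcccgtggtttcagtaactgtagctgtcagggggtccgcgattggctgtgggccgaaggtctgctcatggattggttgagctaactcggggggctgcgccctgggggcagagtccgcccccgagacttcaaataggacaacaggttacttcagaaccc

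GGAA or TTCC occurred 3 times before Robo4, 4 times before Emcn and 0 times before Cldn5, and 93.4% of 32851 promoters of the same length held at least 1, with a median of 3. The longer form AGGAAG, searched with its reverse complement CTTCCT and overlapping the first motif, occurred once before Robo4, 2 times before Emcn and 0 times before Cldn5, against 29.5% of all promoters with at least 1. Of the 10 members, 5 could be matched to the RefSeq promoters used here, and those of Pecam1, Cdh5, Esam, Fli1 and Sox17 were not analysed here. The other matched members have 3 start sites each: GGAA or TTCC occurred 5, 3 and 1 times before those of Egfl7, a gene called in Atg5 KO cells, and 0, 4 and 2 times before those of Erg, which was not called. These are matches of letters in a short window, and binding was not measured.

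Between 17266926 and 23629730 reads per library lay behind the values, a ratio of 1.37. Levels are RPKM, reads scaled to gene length and to the total of the library. The targeted genes remained readable at the RNA level. Atg7 lay at 5.40, 2.64 and 8.34 RPKM in Atg7 KO cells and at 18.4, 25.0 and 19.8 RPKM in control cells (adjusted p = 0.0216, limma). Atg7 was also lower in Atg5 KO cells, at a log2 fold change of -0.95 (adjusted p = 0.00830), just short of the fold threshold. Rb1cc1 in Fip200 KO cells (adjusted p = 0.404) and Atg5 in Atg5 KO cells (adjusted p = 0.994) missed the threshold. A guide that disrupts the reading frame need not lower the RNA, so RNA levels do not test these labels.

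One control library stood apart for the members. Control replicate 2 had the lowest level of all 12 libraries for 9 of the 10 members, equal to other libraries at 0 for Sox17, and Cldn5 was the exception. The same library had the highest levels of Dcn (56.9 RPKM, at most 15.3 elsewhere), Col3a1 (143 RPKM, at most 34.3 elsewhere) and Pdgfra (9.02 RPKM, at most 2.26 elsewhere), which mark fibroblasts. Over the fibroblast and mural list it was the highest of the 12 libraries for 4 of the 9 genes found, Pdgfrb being the fourth, and the lowest for 2, Acta2 (0.444 RPKM) and Tagln (0.454 RPKM). The 9 genes, of 10 listed, summed to between 6.18 and 214 RPKM in control libraries. The sums were 13.5 to 43.3 with Atg5 KO, 5.00 to 67.5 with Atg7 KO and 5.52 to 44.1 with Fip200 KO, and the part of this in the results was not tested. Rgs5, a defining pericyte gene, was at 0 in 11 libraries and at 1 read in the other. Values without control replicate 2 are therefore given beside each called member, and as counts for the other lists. Fewer cells of a type and less RNA per cell cannot be told apart in bulk samples.

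No member was called lower in any KO group. The log2 fold change was above 0 for 9 of the 9 tested members in each of the 3 KO groups, a count that rested on control replicate 2: without it, 9 were above 0 with Atg5 KO, 6 with Atg7 KO and 5 with Fip200 KO. Sox17 did not pass the filter of 0.5 RPKM in at least 3 libraries and was not tested. The median over the 9 members was 1.14 with Atg5 KO, 0.72 with Atg7 KO and 0.52 with Fip200 KO, beside 0.06, -0.01 and 0.02 over all tested genes. Without control replicate 2 the member medians were 0.64, 0.42 and 0.03, beside 0.06, 0.01 and 0.02 over all tested genes. These comparisons share the control libraries, among them the low one.

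The tests were run on log2(RPKM + 0.5) by limma over all genes, and a call needed both a Benjamini-Hochberg adjusted p no larger than 0.1 and a change by 1 or more on the log2 scale. In Fip200 KO cells 0 of 9 members were called higher, where 0.347% of 11803 genes were. At an unadjusted p under 0.05, 1904 genes differed, Esam and Robo4 among them. In Atg5 KO cells 5 of 9 members rose (Cdh5, Esam, Cldn5, Robo4 and Egfl7), where 4.31% of 11833 genes did. Of these, Cldn5 passed the filter only with the KO libraries, where it was high. In Atg7 KO cells 1 of 9 members rose, Robo4, where 3.29% of 11784 genes did. Without control replicate 2, the called members numbered 1 with Atg5 KO, 1 with Atg7 KO and 0 with Fip200 KO, the 1 being Robo4 both times, where 3.58%, 2.2% and 0% of all genes were called higher in those refits. The count of 0 with Fip200 KO is thus that of all 11583 genes, of which 1103 had an unadjusted p under 0.05 by limma.

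**Figure D1:**
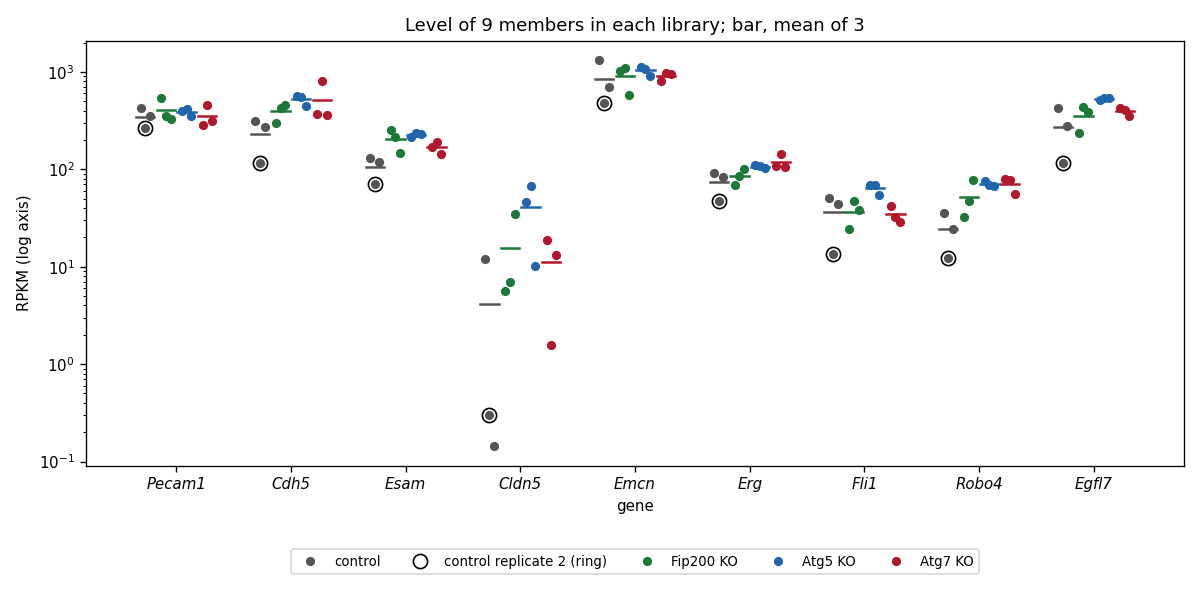
Level of 9 members in each of the 12 libraries, in RPKM on a log axis, as points coloured by group, with bars for the mean of 3 and a ring around control replicate 2. The ringed point is the lowest of all libraries for each member but Cldn5, Emcn lies highest, and Cldn5 spreads from 0.143 to 67.6 RPKM. Sox17 is left out because it was at or near 0.

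**Figure D2:**
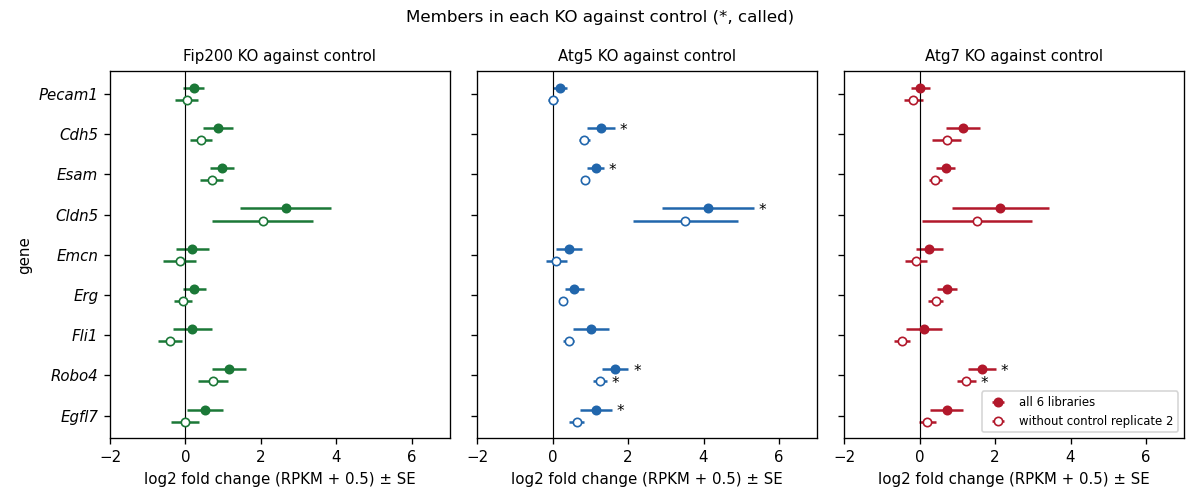
Log2 fold change of 9 members (RPKM + 0.5) in each KO against control, with standard errors, over 3 and 3 libraries (filled) and without control replicate 2 (open), and an asterisk at calls. There are 5 members called in Atg5 KO and 1 in Atg7 KO with all libraries, and Robo4 keeps its asterisk in both KO groups without control replicate 2.

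Robo4 was the member called under the most settings. It lay at 36.0, 12.2 and 24.2 RPKM in control libraries, at 76.2, 69.4 and 67.2 with Atg5 KO, at 79.6, 78.2 and 55.4 with Atg7 KO and at 32.5, 47.6 and 77.3 with Fip200 KO. Every Atg5 KO and Atg7 KO library exceeded every control library, and the first Fip200 KO library fell within the control range. The log2 fold change was 1.66 with Atg5 KO (SE 0.35, adjusted p = 0.0167, limma) and 1.65 with Atg7 KO (SE 0.37, adjusted p = 0.0327). Without control replicate 2 it was 1.25 (adjusted p = 0.0142) and 1.24 (adjusted p = 0.0661). In Fip200 KO cells the value was 1.14 (SE 0.45) with an adjusted p of 0.281, so the difference was not called. Robo4 stayed called in Atg5 KO cells under 19 of 19 alternative settings and in Atg7 KO cells under 16 of 19. The Atg7 KO call was lost without control replicate 3, without Atg7 KO replicate 1 and with a term for the prefix of the library names, where the values were 1.71 (adjusted p = 0.108), 1.56 (adjusted p = 0.109) and 2.11 (adjusted p = 0.347). With the prefix term 0.0654% of genes were called higher in Atg7 KO cells.

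Cdh5 encodes VE-cadherin, the adherens junction cadherin of endothelium. It lay at 309.7, 116 and 271 RPKM in control, at 571, 558 and 443 with Atg5 KO, at 370.2, 805 and 361 with Atg7 KO and at 295, 429 and 457 with Fip200 KO. The Atg5 KO and Atg7 KO libraries all lay above the control libraries, and Fip200 KO overlapped them through its first library. Cdh5 rose with Atg5 KO by a log2 of 1.28 (SE 0.36, adjusted p = 0.0376, limma), and without control replicate 2 the value of 0.85 (adjusted p = 0.020) fell short of the fold threshold while the adjusted p passed. With a term for the prefix of the library names the value was 1.67 and the call was lost (adjusted p = 0.1004), the other 4 members staying called where 2.06% of genes were. The values were 1.15 (adjusted p = 0.123) in Atg7 KO and 0.86 (adjusted p = 0.341) in Fip200 KO cells, neither called.

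Esam, an immunoglobulin-like adhesion molecule of endothelial tight junctions, was the one member of the 9 tested whose KO libraries cleared the shared control range in all 3 KO groups, as 6% of 11608 genes did. It lay at 131, 69.9 and 118 RPKM in control, at 216, 235 and 230.2 with Atg5 KO, at 171, 189 and 143 with Atg7 KO and at 255, 216 and 147 with Fip200 KO. The highest control library was below the lowest library of each KO group. Esam rose with Atg5 KO by a log2 of 1.14 (SE 0.23, adjusted p = 0.0148, limma), or 0.87 (adjusted p = 0.0122) without control replicate 2, below the fold threshold. The log2 fold change with Atg7 KO was 0.70 (adjusted p = 0.108), and with Fip200 KO it was 0.97 (adjusted p = 0.210). Without Fip200 KO replicate 3 the value there was 1.19 and a call (adjusted p = 0.0977), the 1 call among 19 alternative settings. Without control replicate 2 it was 0.69 (adjusted p = 0.541), and with the prefix term 0.61 (adjusted p = 0.757).

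Cldn5, the main tight junction claudin of endothelium, varied most. It lay at 12.1, 0.299 and 0.143 RPKM in control, at 46.4, 67.6 and 10.2 with Atg5 KO, at 18.8, 1.59 and 13.3 with Atg7 KO and at 5.63, 6.95 and 34.6 with Fip200 KO. The reads behind the control values were 324, 10 and 4, so that the first control library was of the order of the KO libraries and the other two were nearly empty. Every KO group overlapped the control range. The called log2 fold change in Atg5 KO cells was 4.12 with an SE of 1.23 (adjusted p = 0.0451, limma), and without control replicate 2 it was 3.51 (adjusted p = 0.118). It was also lost without control replicate 3 and without either of the first 2 Atg5 KO libraries, being 3.36 to 5.50 over the 6 fits that left out 1 library. Cldn5 was 2.65 (adjusted p = 0.333) in Fip200 KO and 2.14 (adjusted p = 0.278) in Atg7 KO cells. Only the first control library reached 0.5 RPKM, so Cldn5 passed the filter on low values only with the KO libraries, where it was higher. This holds for its place in the counts of called members as well.

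Pecam1, the adhesion molecule also known as CD31, was the flattest member. It lay at 428, 265 and 350.2 RPKM in control, at 397, 418 and 355 with Atg5 KO, at 287, 460.3 and 312 with Atg7 KO and at 539, 354 and 325 with Fip200 KO, and all groups overlapped. Its log2 fold change had a 95% interval of -0.25 to 0.63 around 0.19 with Atg5 KO, of -0.57 to 0.61 around 0.02 with Atg7 KO and of -0.46 to 0.88 around 0.21 with Fip200 KO.

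Emcn, the endothelial sialomucin, was the most abundant member per length in every group and overlapped control in each. It lay at 1327, 476 and 704 RPKM in control, at 1131, 1074 and 904 with Atg5 KO, at 806, 971 and 962 with Atg7 KO and at 1025, 1106 and 576 with Fip200 KO. The first control library was the highest of all 12 and the second the lowest. The log2 fold change was 0.44 with Atg5 KO (adjusted p = 0.372), 0.25 with Atg7 KO (adjusted p = 0.644) and 0.18 with Fip200 KO (adjusted p = 0.860, limma).

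Egfl7 lay at 424, 115 and 276 RPKM in control, at 513, 543 and 542 with Atg5 KO, at 424, 409.7 and 352 with Atg7 KO and at 235, 434 and 389 with Fip200 KO. The Atg5 KO libraries were close together and all above control, and the other KO groups overlapped control. Egfl7 rose with Atg5 KO by a log2 of 1.16 (SE 0.43, adjusted p = 0.0825, limma), and without control replicate 2 by 0.64 (adjusted p = 0.0627), which the fold threshold does not pass. This call held in 1 of the 6 fits that left out 1 library. The values were 0.52 (adjusted p = 0.620) in Fip200 KO and 0.72 (adjusted p = 0.280) in Atg7 KO cells.

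Among the transcription factors, Erg lay at 92.0, 46.7 and 84.1 RPKM in control, at 111, 107 and 102 with Atg5 KO, at 108, 144 and 106 with Atg7 KO and at 69.7, 85.7 and 99.6 with Fip200 KO. Both Atg5 KO and Atg7 KO lay above the control range, by log2 fold changes of 0.58 (adjusted p = 0.120, limma) and 0.73 (adjusted p = 0.116), which were not called and were 0.28 and 0.43 without control replicate 2. Fli1, the ETS factor most like ERG, lay at 50.5, 13.4 and 44.2 RPKM in control, at 68.4, 69.4 and 54.3 with Atg5 KO, at 42.5, 32.6 and 28.5 with Atg7 KO and at 24.3, 47.7 and 38.1 with Fip200 KO. Only the Atg5 KO libraries were above the control range, by a log2 of 1.02 (adjusted p = 0.141), or 0.42 (adjusted p = 0.0887) without control replicate 2. Fli1 in Atg7 KO cells was 0.13 with all libraries and -0.47 (adjusted p = 0.229) without control replicate 2. The ratio of Erg to Fli1, chosen after the values were seen, was 1.82, 3.50 and 1.90 in control, 1.62, 1.54 and 1.88 with Atg5 KO, 2.55, 4.41 and 3.74 with Atg7 KO, and 2.87, 1.79 and 2.61 with Fip200 KO. The Atg5 KO and Atg7 KO ratios each overlapped control (exact two-sided permutation p = 0.2 for each, where 3 against 3 libraries allow no p below 0.1).

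Sox17, the SOXF factor, was near 0 throughout, with 11, 0 and 1 reads in control, 5, 3 and 1 with Atg5 KO, 1, 0 and 1 with Atg7 KO, and 0 in each Fip200 KO library. The floor was taken as 3 reads per library, so no fold is given, and a difference was not detectable at this depth. Sox18 and Sox7, the other SOXF genes, were present, at means of 102 and 34.0 RPKM over the 12 libraries.

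Whether every KO library lay above every control library was also counted over all genes. This held for 1 of 9 tested members in Fip200 KO cells (11.7% of genes), for 6 of 9 in Atg5 KO cells (28.4% of genes) and for 4 of 9 in Atg7 KO cells (19.2% of genes). Esam, Cdh5, Erg and Robo4 were counted with Atg5 KO as well as with Atg7 KO, which share the controls.

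With the 3 KO groups averaged in 1 fit of 12 libraries, Robo4 (log2 fold change 1.48, SE 0.30, adjusted p = 0.0104, limma), Cdh5 (1.10, SE 0.32, adjusted p = 0.0387) and Cldn5 (2.97, SE 1.00, adjusted p = 0.0616) were called higher, 3 of 9 members where 2.37% of 12233 genes were. Without a fold threshold, Esam (0.93, adjusted p = 0.0149), Erg (0.51, adjusted p = 0.0950) and Egfl7 (0.80, adjusted p = 0.0995) passed too, where 13.7% of genes were higher at that adjusted p. Without control replicate 2, Robo4 was the member still called, at 1.07 (adjusted p = 0.0669), while Cdh5 was at 0.66 (adjusted p = 0.205) and Cldn5 at 2.36 (adjusted p = 0.251), where 1.29% of genes were called higher. In that refit Esam was at 0.66 (adjusted p = 0.0902), Erg at 0.21 (adjusted p = 0.467) and Egfl7 at 0.28 (adjusted p = 0.497). With the prefix term Cdh5 was not called either (1.25, adjusted p = 0.149), and Robo4 and Cldn5 were, 2 of 9 members where 0.948% of genes were.

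The KO groups were also compared with one another. No member was called in any of the 3 comparisons, in which 0% of 12233 genes were called by limma, although 927, 916 and 562 genes had an unadjusted p under 0.05 for Atg5 KO against Fip200 KO, Atg7 KO against Fip200 KO and Atg7 KO against Atg5 KO. All 27 intervals of the member differences covered 0, which does not show that the KO groups are alike. For Fli1, Atg7 KO minus Atg5 KO was -0.89 on the log2 scale (95% interval -1.83 to 0.04), by limma in the fit of 12 libraries. The unadjusted p of 0.0594 by limma was the smallest of the 27, and the adjusted p was 0.9999. Cldn5 differed by -1.98 (-4.68 to 0.71) in the same comparison, and Robo4 by 0.52 (-0.30 to 1.33) in Atg5 KO against Fip200 KO cells. The calls in Atg5 KO cells are therefore not shown to be particular to that KO.

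Each member was then set against Pecam1 within the same library, a ratio that scaling between libraries cannot change and that was chosen after the values were seen. Esam stood at 0.306, 0.264 and 0.336 of Pecam1 in control, at 0.543, 0.563 and 0.648 with Atg5 KO, at 0.596, 0.410 and 0.458 with Atg7 KO and at 0.474, 0.612 and 0.452 with Fip200 KO. All 9 KO libraries were above all 3 control libraries, and the second control library, low for both genes, was the lowest of the 12 at 0.264. The share of all genes whose ratio to Pecam1 clears control in this way was not counted. For RPKM itself, 6% of 11608 genes cleared control in all 3 KO groups. Cdh5 stood at 0.723, 0.439 and 0.773 of Pecam1 in control, at 1.44, 1.34 and 1.25 with Atg5 KO, at 1.29, 1.75 and 1.16 with Atg7 KO and at 0.548, 1.21 and 1.41 with Fip200 KO. Of the 9 KO libraries, 8 exceeded the controls, the exception being the first Fip200 KO library.

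Robo4 stood at 0.0840, 0.0463 and 0.0691 of Pecam1 in control and at a mean of 0.182 ± 0.0142 (SD, n = 3, exact permutation p = 0.1) in Atg5 KO and 0.208 ± 0.0599 (SD, n = 3, exact permutation p = 0.1) in Atg7 KO libraries, with no overlap with control in either. Erg was also above its control ratios in Atg5 KO and Atg7 KO libraries, Fli1 and Egfl7 in Atg5 KO libraries alone among the 3 KO groups, and Emcn in none. For each ratio without overlap the exact two-sided p was 0.1, the smallest that 3 against 3 libraries can give. The share of all genes whose ratio to Pecam1 clears control was not counted. For RPKM itself that share was 28.4% with Atg5 KO and 19.2% with Atg7 KO.

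**Figure D3:**
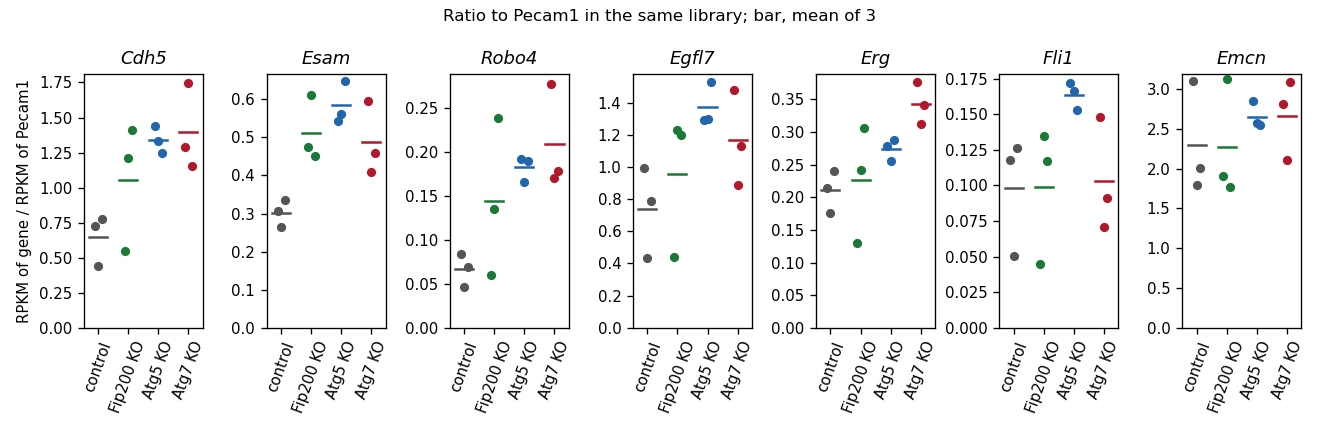
RPKM of 7 members divided by the RPKM of Pecam1 in the same library, as points by group with bars for the mean of 3, on linear axes from 0. The 9 KO libraries all lie above the controls for Esam, and for Cdh5 and Robo4 the first Fip200 KO library is the one KO point within the control range. How many of all genes separate in this way after division by Pecam1 was not counted.

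The order of the members by level changed little at its ends. Emcn was highest in every group, without overlap with the next member, and Cldn5 and Sox17 were the lowest. In control libraries the order was Emcn, Pecam1, Egfl7, Cdh5, Esam, Erg, Fli1, Robo4, Cldn5 and Sox17, and all neighbours from Pecam1 down to Robo4 overlapped. In Atg5 KO libraries Egfl7 (mean 533 RPKM) and Cdh5 (524 RPKM) stood above Pecam1 (390.1 RPKM), with no overlap between Cdh5 and Pecam1, and Robo4 (71.0 RPKM) stood above Fli1 (64.0 RPKM) with overlap. In Atg7 KO libraries Robo4 (71.1 RPKM) and Fli1 (34.5 RPKM) no longer overlapped.

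Of 14 further endothelial adhesion and junction genes, 12 were tested, and the calls were 1 lower and 1 higher with Atg5 KO, 2 lower and 1 higher with Atg7 KO, and 1 lower with Fip200 KO. Their median log2 fold changes were 0.11, -0.14 and -0.28 in the same order. Jam2, a junctional adhesion molecule, fell in every KO group, with log2 fold changes of -2.72 for Atg5 KO (adjusted p = 0.00372), -2.71 for Atg7 KO (adjusted p = 0.0116) and -2.56 for Fip200 KO (adjusted p = 0.0363, limma). It lay between 4.92 and 10.2 RPKM in control and between 0.313 and 1.35 RPKM in the KO libraries, with control replicate 2 the highest, opposite to its place for the members. Jam3, its relative, rose in Atg5 KO (2.0, adjusted p = 0.0145) and Atg7 KO cells (1.16, adjusted p = 0.0792), and Adgrf5, an adhesion G protein-coupled receptor, fell by 1.04 in Atg7 KO cells (adjusted p = 0.0457). Plvap, of the diaphragms of fenestrae, was the most abundant of the list, at a mean of 382 RPKM over the 12 libraries.

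Of 14 genes of the cytoplasmic junction plaque, the calls were 1 lower and 1 higher with Atg5 KO, 1 higher with Atg7 KO and 0 with Fip200 KO, with medians of 0.12, 0.0070 and -0.07. Cgnl1, paracingulin, rose in Atg7 KO cells (1.45, adjusted p = 0.0163, limma), Rasip1, a RAP1 effector of vessel lumens, rose in Atg5 KO cells (1.21, adjusted p = 0.0155), and Radil fell there by 1.85 (adjusted p = 0.00590). Radil reached 0.5 RPKM in the 3 control libraries and in none with Atg5 KO, so it passed the filter only through the group where it was high. Ctnnb1, β-catenin, which binds VE-cadherin, was the most abundant at a mean of 343 RPKM and was not called.

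Of 12 other cadherins and claudins in the tables, 6 to 7 were tested. Ocln, the tight junction protein occludin, fell with Atg5 KO (-1.97, adjusted p = 0.00487) and Atg7 KO (-2.57, adjusted p = 0.00905, limma), from 5.49 to 7.53 RPKM in control to between 0.429 and 1.77 RPKM. Cdh2, N-cadherin, rose in Atg7 KO cells (1.12, adjusted p = 0.0212). Cdh13, a cadherin held by a lipid anchor, was the most abundant at a mean of 68.6 RPKM.

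Of 15 further endothelial transcription factors, Klf2, a factor induced by shear stress, fell with Atg5 KO (-2.01, adjusted p = 0.0483) and Atg7 KO (-1.58, adjusted p = 0.0389, limma), and the other 14 were not called in any KO group. The list medians were 0.41 with Atg5 KO, -0.04 with Atg7 KO and -0.05 with Fip200 KO. With Atg5 KO 13 of the 15 were above 0, and 7 of 15 without control replicate 2, where the median was -0.0028. Sox18 was the most abundant. Of 20 surface and secreted endothelial genes, 19 were tested, and the calls were 2 lower and 2 higher with Atg5 KO, 3 lower with Atg7 KO and 1 lower with Fip200 KO, with medians of 0.09, -0.28 and -0.24. Flt1, the VEGF receptor that acts as a decoy, fell with Fip200 KO (-3.66, adjusted p = 0.0995) and Atg7 KO (-2.99, adjusted p = 0.0196). Ramp2, a part of the adrenomedullin receptor, fell with Atg5 KO (-1.38, adjusted p = 0.0346) and Atg7 KO (-1.33, adjusted p = 0.0784). Calcrl, its partner, fell by 1.25 in Atg7 KO cells (adjusted p = 0.0371). Kdr, the main VEGF receptor, rose in Atg5 KO cells (1.35, adjusted p = 0.0878), as did Clec14a (2.83, adjusted p = 0.0338), while Podxl, a sialomucin like endomucin, fell by 2.09 (adjusted p = 0.0780). Clec14a lay at 0.0334 to 1.15 RPKM in control, with a median of 0.0559, and at 2.45 to 17.1 RPKM with Atg5 KO. It therefore passed the filter on low values only with the Atg5 KO libraries, the group where it was high. Tm4sf1 was the most abundant, at a mean of 445 RPKM. Over these 5 lists there were 22 calls, 15 lower and 7 higher, of which 11 and 5 were also calls without control replicate 2 (Clec14a among the 5). The calls lost were those of Flt1 and Jam2 with Fip200 KO, of Kdr, Radil and Podxl with Atg5 KO, and of Jam3 with Atg7 KO. Their values were then -3.92 for Flt1, -2.31 for Jam2, 0.81 for Kdr, -2.38 for Podxl and 0.79 for Jam3, and Radil no longer passed the filter on low values. With Fip200 KO no gene at all was called in that refit. Over all tested genes, too, more were called lower than higher: 6.94% lower with Atg5 KO, 6.81% with Atg7 KO and 1.64% with Fip200 KO, against the shares called higher given above.

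**Figure D4:**
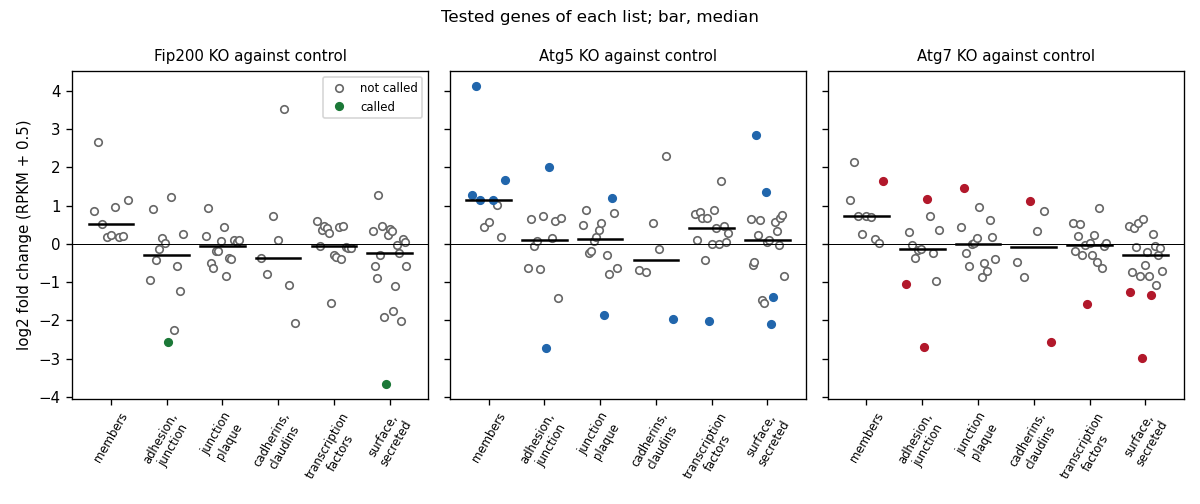
Log2 fold changes (RPKM + 0.5) of the tested members and of 5 other gene lists in each KO against control, as 1 point per gene with filled points for calls and bars for the median. The member medians of 1.14 (Atg5 KO), 0.72 (Atg7 KO) and 0.52 (Fip200 KO) lie above those of the other lists, which range from -0.41 to 0.41. Without control replicate 2 the member medians are 0.64, 0.42 and 0.03 and the others range from -0.65 to 0.11, with the Fip200 KO median of the members below the 0.04 of the cadherins and claudins.

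Of the 10 members, which are also the endothelial markers used, 8 were at 10 RPKM or more in every library, Cldn5 and Sox17 being the exceptions. Some other endothelial genes were near 0: Vwf, von Willebrand factor, reached at most 0.809 RPKM, and the arterial connexin genes Gja4 and Gja5 at most 0.0589 and 0.0497 RPKM. Part of the lymphatic set was present. Lyve1, Pdpn, Flt4 and Nrp2 were each at 31.7 RPKM or more in every library, while Prox1, the defining lymphatic factor, lay between 0.0366 and 5.79 RPKM. The 7 lymphatic markers found, of 8 listed, summed to between 306 and 415 RPKM in control libraries, to 434 to 560.0 with Atg5 KO, 425 to 568 with Atg7 KO and 258 to 913 with Fip200 KO. Of them, Lyve1 rose in Atg5 KO (1.25, adjusted p = 0.0480) and Atg7 KO cells (1.11, adjusted p = 0.0947, limma), and Mmrn1 in Atg5 KO cells (2.18, adjusted p = 0.0543). The set did not rise as a whole: the log2 fold change was above 0 for 4 of the 7 in each KO group. With Atg5 KO the means of Reln (0.572 RPKM, control 1.86), Pdpn (113, control 144) and Nrp2 (37.3, control 43.3) were lower. With Fip200 KO Mmrn1 itself had a lower mean (0.691 RPKM, control 4.62). Of the fibroblast and mural list, Tagln rose in Atg5 KO (2.12, adjusted p = 0.0136) and Atg7 KO cells (3.21, adjusted p = 0.0747), Acta2 in Atg5 KO cells (1.5, adjusted p = 0.0499) and Col1a2 in Atg7 KO cells (1.64, adjusted p = 0.0134). Col1a2 had 1 or 2 reads in each control library and passed the filter only through the Atg7 KO libraries, at 0.756 to 1.54 RPKM. Other genes of that list went the other way: Dcn was at -2.88 with Atg5 KO (adjusted p = 0.182) and -3.30 with Fip200 KO (adjusted p = 0.328), and was called lower in the mean of the KO groups (-3.25, adjusted p = 0.0432). In control Dcn lay at 0.125, 56.9 and 15.2 RPKM, and in the KO libraries at 0.0550 to 0.989 RPKM. The call in the mean, where 717 of 12233 genes were called lower, thus rests on control replicates 2 and 3. Col3a1 was at -1.49 with Atg5 KO (adjusted p = 0.450), -3.58 with Atg7 KO (adjusted p = 0.112) and -2.07 with Fip200 KO (adjusted p = 0.529). Their part in the member values was not tested.

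The pan-leukocyte gene Ptprc reached at most 0.129 RPKM, Adgre1 0.118 and Csf1r 0.179, so the defining blood cell markers were near 0. Cd68, a lysosomal protein of macrophages and other cells, was at 6.95 to 263 RPKM, and fell with Atg5 KO (-2.26, adjusted p = 0.00640) and Atg7 KO (-1.70, adjusted p = 0.0798, limma). Of the 9 calls of marker genes in a KO against control, 4 were also calls without control replicate 2 (Cd68, Mmrn1 and Tagln with Atg5 KO, and Col1a2 with Atg7 KO, whose place in the test rests on the group where it was high). The values of those lost were then 1.23 for Lyve1 and 1.11 for Acta2 with Atg5 KO, and 1.09 for Lyve1, -1.75 for Cd68 and 2.77 for Tagln with Atg7 KO. The 4 blood cell genes found, of 9 listed, summed to between 34.5 and 91.8 RPKM in control libraries, to 10.1 to 11.8 with Atg5 KO, 7.14 to 27.1 with Atg7 KO and 16.0 to 263 with Fip200 KO. The 2 epithelial genes found, of 7 listed, were Krt8, at most 0.307 RPKM, and Krt18, at 0.216 to 10.5 RPKM. Their sum was 6.19 to 10.6 RPKM in control and 0.392 to 6.28 RPKM in the KO libraries, so the ranges overlapped, and Krt18 was not called in any KO group.

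Of the chromosomes that hold the members, 8, 9 and 3 had medians away from 0 in the KO comparisons, although not in every KO library. RefSeq places Cdh5 on chromosome 8. Over all tested genes of that chromosome the median was -0.37 with Fip200 KO, -0.37 with Atg5 KO and -0.38 with Atg7 KO on the log2 scale, and Cdh5 went the other way. Robo4, Esam and Fli1 lie on chromosome 9, with medians of 0.22, 0.23 and 0.25, and Emcn on chromosome 3, with medians of -0.29, -0.10 and -0.28. The called increases of Robo4 and Esam are larger than these medians, and the part of the chromosomes in them was not tested. Cldn5 and Erg on chromosome 16, Pecam1 on 11, Egfl7 on 2 and Sox17 on 1 lie on chromosomes with medians within -0.12 and 0.09.

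Per library, the median of 492 chromosome 8 genes was 0.31, 0.25 and 0.36 above the 12-library mean in control on the log2 scale. It was -0.06, -0.06 and -0.31 for the Atg5 KO libraries, -0.33, 0.26 and -0.15 for Atg7 KO and -0.24, -0.11 and 0.16 for Fip200 KO. The second Atg7 KO library, with the highest Cdh5 of all, was thus the one Atg7 KO library whose chromosome 8 was at the control level. On chromosome 9 the control libraries were at -0.12, -0.18 and -0.16, and of the KO libraries the third Atg5 KO (-0.15) and the third Fip200 KO library (-0.12) were at that level. Robo4 and Esam lie near each other in RefSeq, with 2 genes of the tables between them. These were not called in any KO group: Robo3, a relative of Robo4, was at -0.12 with Atg5 KO, -0.53 with Atg7 KO and -0.73 with Fip200 KO, and Msantd2 at 0.29, 0.48 and 0.37 in that order (adjusted p from 0.114 upward, limma).

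**Figure D5:**
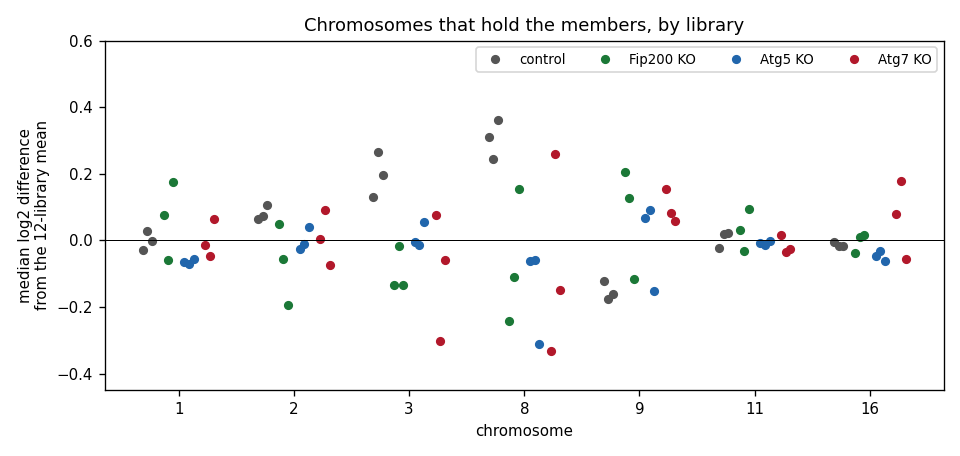
Median over the genes of a chromosome of the log2 difference of each library from the mean of the 12 libraries, for the 7 chromosomes that hold members, as points coloured by group. The 3 control points on chromosome 8 are at 0.25 to 0.36, where 1 Atg7 KO library is at 0.26, and the control points on chromosome 9 are at -0.18 to -0.12.

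The genes with profiles most like a member over the 12 libraries were found among 11012 genes with a mean of at least 1 RPKM, by the root mean square difference of centred log2(RPKM + 0.5) values, as a description. For Cdh5 the nearest was Sipa1 (0.190). They were for Esam Pde2a (0.185) and Bloc1s4 (0.231), and for Robo4 Heatr3 (0.223) and 4930486L24Rik (0.282). For Egfl7 they were Cerk (0.194) and Hoxd3 (0.202), for Emcn Ptprm (0.146) and Fes (0.205), and for Pecam1 Zfp512 (0.135) and Dgkz (0.147). For Erg they were Actb (0.149) and Zfp386 (0.160), for Fli1 Zfp41 (0.278) and Nrros (0.282), and for Cldn5 Sgce (0.949) and Erdr1 (0.974), while Sox17 had too few reads for a profile. Within the set the nearest pair was Fli1 and Egfl7 (0.275), closer to Fli1 than its first non-member gene.

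The library names give a further split, since their prefixes differ: FY for 1 control and all Fip200 KO libraries, JG for 2 control and 2 Atg5 KO libraries, and Yang for 1 Atg5 KO and all Atg7 KO libraries. What the prefixes stand for is not stated. Within JG, with 2 and 2 libraries and no test, Atg5 KO exceeded control on the log2 scale by 2.05 for Robo4, 1.67 for Cdh5, 1.31 for Esam, 1.56 for Egfl7 and 6.30 for Cldn5. The JG controls are replicates 2 and 3, and against replicate 3 alone the differences were 1.57, 1.06, 0.93, 0.93 and 6.46. Within FY, 3 Fip200 KO libraries against 1 control gave 0.45 for Robo4, 0.32 for Cdh5 and 0.61 for Esam but -0.10 for Cldn5, -0.31 for Egfl7, -0.51 for Fli1, -0.13 for Erg, -0.61 for Emcn and -0.11 for Pecam1. Atg7 KO and control shared no prefix, so no difference within a prefix could be taken for Atg7 KO. The fit with a prefix term joins them only through Atg5 KO, which has libraries of both JG and Yang. It takes the prefix to act alike in every group, which was not tested. That fit gave 2.11 for Robo4 (SE 0.64, adjusted p = 0.347, limma) and 1.77 for Cdh5 (SE 0.73, adjusted p = 0.480).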

How the data were processed

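RNA of 562 cells, 3 libraries for each of control, Atg5 KO, Atg7 KO and Fip200 KO, was sequenced. Per the paper's methods, reads were trimmed of adapters, TopHat2 placed them on the genome, Bioconductor packages counted them per transcript and edgeR compared the groups; builds, annotation and versions are not given in the sources used here. The authors deposited, in 3 tables of 14851 genes, RPKM values per library, that is reads scaled to gene length and library total, and the group means they deposited are a signal on the scale of size-factor-scaled reads. The fold changes, log2 fold changes, p-values and adjusted p-values of the authors' own test were left aside. The signal was used only to recover whole reads, which succeeded within 0.01 reads for 14851 of 14851 genes (20 had none), at 17266926 to 23629730 reads per library.

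Genes with at least 0.5 RPKM in at least 3 libraries of a fit were tested on log2(RPKM + 0.5) with limma 3.58.1 (R 4.3.3), with a trend of the variance, and called where the Benjamini-Hochberg adjusted p did not exceed 0.1 and the change was 1 or more on the log2 scale; folds of low genes are understated on this scale. Each KO was fitted with control (6 libraries), and the mean of the KO groups and the KO-to-KO differences were fitted over 12 libraries. Every fit with the prefix term used all 12 libraries too. Single values were tested by exact two-sided permutation (smallest p 0.1). Sequence and gene order came from RefSeq (GRCm38.p6), which placed 14837 genes; the build of the tables is not given, so no position was set against them. Tables and figures were made in Python 3.11.15 (pandas 2.3.3, numpy 2.4.6, matplotlib 3.10.9, scipy 1.17.1).

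The members, the other gene lists and the tests were chosen with earlier results of these data known. The text names all 10 members, the targeted genes, in each other list the genes called in a KO against control and the most abundant gene, and the 2 non-member genes most like each member (for Cdh5, 1). One gene of the junction plaque list is not reported here and was left out of that list's counts. Genes outside this rule (Dcn, Col3a1, Pdgfra, Pdgfrb, Rgs5, Pdpn, Flt4, Nrp2, Prox1, Reln, Ptprc, Adgre1, Csf1r, Krt8, Krt18, Sox7, Vwf, Gja4, Gja5, Robo3 and Msantd2) were named after their values were seen. Alternatives covered thresholds, pseudocount, filter, scaling, trend, a replicate block, the library-name prefix, a fit of all libraries and leaving out each library. Limma voom on the recovered reads, scaling to Pecam1, and the alternatives for the ranges of groups and for the ratios were added after seeing the data.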

Additional observations from a re-analysis of the deposited data

How the results depend on the processing

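The number of members called was 5 in Atg5 KO cells and 3 when libraries were scaled to Pecam1. For that scaling no share of all genes is given, so whether 3 stands out cannot be read from it. In Atg7 KO cells it was 1 in the fit of 6 libraries. In a fit of all 12 libraries it was 2 (Cdh5 and Robo4), for which no share of all genes is given. With a term for the prefix of the library names, also fitted over all 12 libraries, it was 0 (0.0654% of all genes were then called higher). For the mean of the KO groups it was 3, and 6 with no minimum fold, where 13.7% of genes were higher. Leaving out 1 library gave 0 to 1 called members for Fip200 KO, 1 to 6 for Atg5 KO, 0 to 2 for Atg7 KO and 1 to 5 for the mean, where 0% to 1.45%, 3.58% to 5.71%, 1.68% to 4.87% and 1.29% to 3.18% of all genes were called higher. The members above control in every KO library then numbered 1 to 4 for Fip200 KO and 4 to 7 for Atg7 KO (13.4% to 20.6% and 21.7% to 30% of all genes); a smaller group overlaps less by construction. The cause of the other changes was not tested. Where 1 sample group was left with 2 libraries, the spread was pooled by limma.

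Of 797 refits of single member values, 736 kept direction and side of the threshold, 28 lost a call, 11 gained one and 22 changed sign. All 22 were of values not called. With the prefix term, Fip200 KO gave -0.11 for Pecam1, -0.10 for Cldn5, -0.61 for Emcn, -0.13 for Erg, -0.51 for Fli1 and -0.31 for Egfl7; scaled to Pecam1, it gave -0.028 for Emcn and -0.023 for Fli1. Leaving out 1 library moved Fip200 KO values between -0.0097 and 0.38 for Pecam1, -0.16 and 0.58 for Emcn, -0.065 and 0.42 for Erg, -0.41 and 0.53 for Fli1, and -0.0052 and 0.93 for Egfl7. Atg7 KO values moved between -0.19 and 0.18 for Pecam1, -0.087 and 0.65 for Emcn, and -0.47 and 0.47 for Fli1, and the means between -0.042 and 0.30 for Pecam1, -0.050 and 0.69 for Emcn, and -0.15 and 0.79 for Fli1.

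Same-numbered control and KO libraries did not deviate together (correlations -0.22 to 0.08), so the numbers do not pair them; with the replicate block 0, 5, 1 and 3 members were called for Fip200 KO, Atg5 KO, Atg7 KO and the mean, as without it (0.11%, 4.27%, 2.91% and 2.28% of all genes called higher). Depth limits Sox17 and, in control, Cldn5.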
